A study of Homo sapiens with 6 samples.

Results

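Transcripts of homologous recombination and Fanconi anaemia repair genes were followed in SAS cells, an established human line from an oral squamous cell carcinoma. The set was a list of 42 gene symbols, taken as they stand in the platform annotation and not by a threshold on their values. A probe set annotated with that symbol alone existed for 37 of them in the annotation used. RBBP8, BRCA2, FANCA, FANCD2 and ATRIP were not analysed here, the last because its 3 probe sets also carried other symbols. The 37 genes passed the filter on low signals and were tested among 12935 genes of 19775 on the array. CLSPN, EXO1 and FANCB passed through some of the 4 groups only, whereas the other 34 had every group mean above the filter level, a signal of 79.3.

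Homologous recombination copies an intact sister chromatid to mend a broken or stalled replication fork. Broken ends are trimmed to single strands, BRCA proteins help these strands exchange with the intact copy, and the joint molecules formed are later dissolved or cut. In the Fanconi pathway a multi-subunit ubiquitin ligase marks the FANCI-FANCD2 pair at crosslinked DNA, which then calls in the same recombination factors. Many genes of both pathways are known to be transcribed mostly as cells enter and pass through S phase.

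The study set a control siRNA (siCtrl) against an siRNA directed at CYLD (siCYLD), a tumour suppressor and deubiquitinase of inflammatory signalling, without and with an inhibitor of ALK5, the receptor kinase of TGF-β. All cells grew for 2 days after transfection and then spent 48 h in medium lacking serum. The groups were siCtrl with DMSO (2 arrays), siCYLD with DMSO (2), siCtrl with inhibitor (1) and siCYLD with inhibitor (1), and DMSO arrays are called untreated. Values are MAS5 signals, linear intensities of 1 probe set per gene, and differences are on the log2 scale after adding 16.1 to each signal.

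Promoters of 5 genes among those with the largest falls are shown first, with ATR, the gene of smallest difference at the probe set used, for contrast. Each run spans 160 bases before the annotated start site and 30 from it, in the direction of the gene. Capitals mark E2F-type letters (TTCCCGC with its variants TTCGCGC and also TTGCCGC and also TTGGCGC, on either strand, so that TTCCCGC can appear as GCGGGAA), a kind of site bound by E2F factors in genes of S phase. In UBE2T they mark CHR-type letters (TTTGAA or TTCGAA on either strand), a kind of site known from genes of G2 and mitosis.
RAD51AP1: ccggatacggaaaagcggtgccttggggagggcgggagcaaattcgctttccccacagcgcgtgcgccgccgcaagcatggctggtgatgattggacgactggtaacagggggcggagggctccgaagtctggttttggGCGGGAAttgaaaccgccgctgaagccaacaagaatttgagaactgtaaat
BRIP1: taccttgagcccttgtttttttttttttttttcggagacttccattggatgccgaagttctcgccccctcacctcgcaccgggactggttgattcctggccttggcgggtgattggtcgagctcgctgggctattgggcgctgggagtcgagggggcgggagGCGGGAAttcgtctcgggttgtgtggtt
BRCA1: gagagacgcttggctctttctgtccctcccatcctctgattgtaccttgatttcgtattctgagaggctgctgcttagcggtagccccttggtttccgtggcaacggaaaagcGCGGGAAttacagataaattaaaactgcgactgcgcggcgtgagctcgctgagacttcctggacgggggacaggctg
RAD54L: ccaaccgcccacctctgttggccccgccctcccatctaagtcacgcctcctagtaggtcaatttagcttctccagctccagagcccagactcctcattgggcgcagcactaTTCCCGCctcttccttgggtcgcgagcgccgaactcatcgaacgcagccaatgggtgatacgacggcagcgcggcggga
UBE2T: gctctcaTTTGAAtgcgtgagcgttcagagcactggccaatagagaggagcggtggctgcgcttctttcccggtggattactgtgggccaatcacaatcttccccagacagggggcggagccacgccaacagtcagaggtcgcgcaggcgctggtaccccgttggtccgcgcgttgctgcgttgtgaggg
ATR: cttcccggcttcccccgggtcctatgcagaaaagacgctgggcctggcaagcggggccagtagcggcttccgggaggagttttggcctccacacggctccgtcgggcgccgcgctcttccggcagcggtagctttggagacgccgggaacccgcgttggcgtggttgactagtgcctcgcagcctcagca
Sequences are those of RefSeq on GRCh38.p14, at chr12:4538730-4538919 (+ strand) for RAD51AP1, chr17:61863499-61863688 (- strand) for BRIP1, chr17:43125335-43125524 (- strand) for BRCA1, chr1:46247528-46247717 (+ strand) for RAD54L, chr1:202341907-202342096 (- strand) for UBE2T and chr3:142578704-142578893 (- strand) for ATR. Counting the start site as position 0, the capitals began at -21 in RAD51AP1, 2 in BRIP1, -47 in BRCA1, -49 in RAD54L and -153 in UBE2T, and ATR had neither kind of letters in this window. Where a gene had several promoter entries, the one with the most matches to these letters was printed. Another BRCA1 entry, not shown, held neither kind.

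Whole promoters of 300 bases (250 before and 50 from the start site) were on hand for 33 of the 37 genes, with 46 entries, and a gene with several counted if any held a match. NBN, RAD54B, FANCI and RMI2 had no entry. E2F-type letters stood in 12 of the 17 genes that fell with siCYLD below (70.6%) and in 8 of the 16 that were not called (50%). The share was 24.3% of all tested genes with an entry and 15.3% of all genes with a promoter. CHR-type letters stood in 2 of 17 and 2 of 16 (11.8% and 12.5%), against 15.5% and 19.5% of those backgrounds. The CCAAT box, a common promoter element searched as CCAAT on both strands, stood in 9 of 17 and 9 of 16 (52.9% and 56.2%), against 42.8% and 39.7%. Among genes of DNA replication 85.2% held E2F-type and 7.41% CHR-type letters, and among mitotic genes 24% and 76%. The shares are descriptions of letters in these windows, and their differences were not tested.

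**Figure D1:**
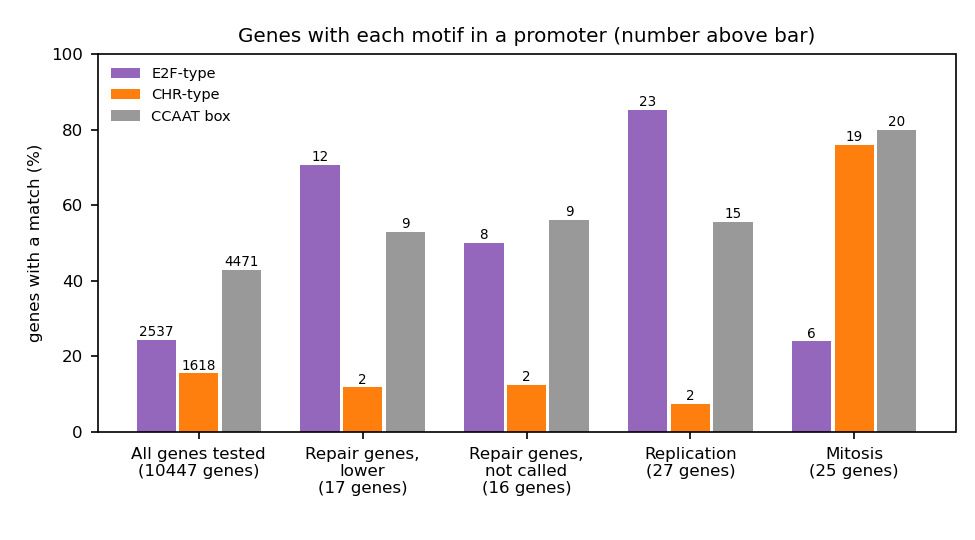
Share of genes (percent, vertical axis) with E2F-type, CHR-type or CCAAT letters in a promoter of 300 bases, by gene set, with the number of genes above each bar. E2F-type letters stood in 12 of 17 repair genes that fell with siCYLD and 8 of 16 not called, and CHR-type letters in 19 of 25 mitotic genes.

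Titles and source names disagreed for 2 of the 6 arrays. The array titled siCYLD replicate 1 was described as control siRNA, and that titled siCtrl replicate 2 as CYLD siRNA. Groups follow the titles, and values without both arrays are given below. CYLD itself, at its brightest probe set, read 411 and 500 with siCtrl against 278 and 230 with siCYLD (log2 difference -0.80, adjusted p = 0.0065, limma with Benjamini-Hochberg adjustment). Its 3 other kept probe sets were also called lower when all kept probe sets were fitted. The one with the largest difference read 485 and 549.9 on the untreated arrays titled siCtrl against 77.2 and 125 on those titled siCYLD, and 421 against 71.1 on the inhibitor arrays (log2 difference -2.21 untreated, adjusted p = 2.97e-05, limma). Both arrays with conflicting labels lay on the side of their titles there. Over all probe sets (log2 scale, Pearson) the untreated arrays of 1 title correlated at 0.976 (siCtrl) and 0.9755 (siCYLD), and those of different titles at 0.9665 to 0.9681. A further CYLD siRNA or a rescue is not mentioned in the labels. Nor do the labels tell whether duplicate arrays came from different cultures, and p-values therefore reflect array-to-array spread that may be technical. The epithelial markers EPCAM, CDH1, SFN and DSP were bright on every array, with a lowest signal of 10660 (DSP). Of 11 squamous markers 8 were tested (for knockdown 5 had an unadjusted p under 0.05 and 1 was called, DSP, higher at 0.66), and their summed signal was 68885 to 69776 in untreated siCtrl and 74825 to 76304 in untreated siCYLD. Of 10 fibroblast markers 5 were tested, with FBLN1 (-1.17) called lower and alone under an unadjusted p of 0.05 and sums of 1208 to 1303 and 1020 to 1057, and COL3A1, LUM and POSTN were below the filter. The 3 tested of 8 leukocyte markers (sums 317 to 349 and 281 to 291) and the 2 of 5 endothelial markers (216 to 286 and 223 to 279) gave 0 knockdown calls by limma and 0 unadjusted p under 0.05. PTPRC, MS4A1, CD14 and LYZ were below the filter. The ratio of the 3′ to the 5′ ACTB control probe set, a sign of RNA length, was 3.21 to 3.67 on siCtrl arrays and 2.26 to 2.48 on siCYLD arrays, the inhibitor arrays included. The same ratio for GAPDH overlapped, at 1.79 to 2.14 on siCtrl and 1.80 to 1.97 on siCYLD arrays. The median signal of the poly-A spike controls was 828 to 902 on siCtrl and 985 to 1076 on siCYLD arrays, without overlap. The part of ACTB, the spikes, DSP and FBLN1 in the knockdown results was not tested.

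In untreated cells 20 of the 37 repair genes were lower with siCYLD and 0 were higher, at an adjusted p under 0.05. Over all 12935 genes, 11.8% were called lower and 9.49% higher. The remaining 17 were not called, 25 of the 37 had an unadjusted p under 0.05 (34.2% of all genes), and 31 of 37 differences were negative (54.7% of all genes). The median difference was -0.61, against -0.041 over all genes. Signals of the untreated groups did not overlap, with siCYLD lower, for 28 of 37 (34.1% of all genes), and 10 genes were below -1 (2.7% of all genes). Of the 34 genes with every group mean above the filter level, 18 were called lower. That level was met in every group by 85.1% of all genes. The share of these called lower was not computed, so this count has no matching background. In RNA from a whole culture, fewer cells with a transcript and less of it per cell cannot be told apart.

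**Figure D2:**
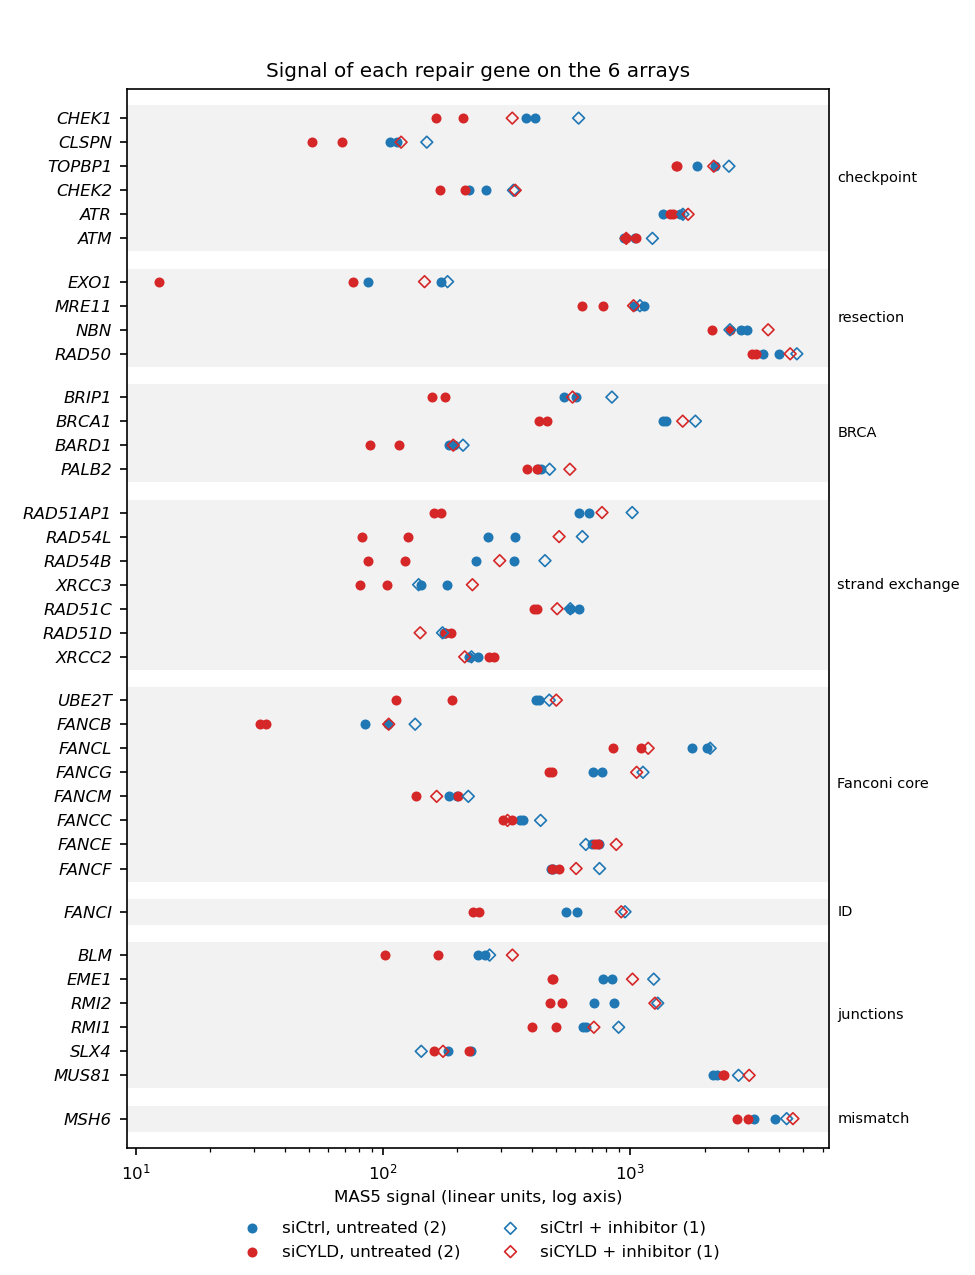
MAS5 signal (linear units on a log axis) of 37 repair genes on the 6 arrays, grouped by role. Filled circles are the 2 untreated arrays of each siRNA and open diamonds the single inhibitor arrays. For RAD51AP1, BRIP1 and BRCA1 both untreated siCYLD circles lie far left of the other 4 points.

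Of 6 checkpoint genes, 2 were called lower. CHEK1, the kinase that ATR activates when forks stall, read 378 and 412 with siCtrl against 210 and 163 with siCYLD. It fell by 1.03 ± 0.18 on the log2 scale (± limma standard error, 2 arrays against 2; adjusted p = 0.00103, limma). The groups did not overlap, and the 3 other kept CHEK1 probe sets differed by -0.67 to -1.27. TOPBP1, which switches ATR on, fell by 0.39 ± 0.11 (adjusted p = 0.0257, limma) and lost its call without siCtrl replicate 1 (adjusted p = 0.136) or siCYLD replicate 2 (adjusted p = 0.0749). CLSPN, the adaptor between ATR and CHEK1, differed by -0.75 (95% interval -1.40 to -0.095, adjusted p = 0.0975) and was not called. The kinases that head the cascade were near 0 at the probe sets used. ATR read 1593 and 1360 with siCtrl against 1491 and 1442 with siCYLD, overlapping groups with a difference of -0.0055 (interval -0.26 to 0.25). Another kept ATR probe set read 401 and 442 with siCtrl against 603 and 502 with siCYLD (0.37), and a further one differed by -0.42. Neither was called. ATM differed by 0.019 (interval -0.25 to 0.28) and CHEK2 by -0.31 (interval -0.73 to 0.11).

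Among genes that recognise and trim broken ends, 2 of 4 were called lower. EXO1, an exonuclease that resects ends, read 86.7 and 171 with siCtrl against 12.4 and 75.4 with siCYLD, with the lowest signal on siCYLD replicate 1. Its difference was -1.44 ± 0.48 (adjusted p = 0.0479, limma), and without siCYLD replicate 1 it was -0.60 with an adjusted p of 0.257. Without siCtrl replicate 2 its adjusted p was 0.245. MRE11, the nuclease of the complex it forms with RAD50 and NBN, fell by 0.61 ± 0.13 (adjusted p = 0.00541), from 1033 and 1136 to 776 and 640. The remaining MRE11 probe set above the filter differed by 0.011, which was not called. RAD50 read 3993 and 3431 with siCtrl against 3220 and 3109 with siCYLD, groups that did not overlap, and was not called (difference -0.23, interval -0.45 to -0.0019, adjusted p = 0.143). NBN differed by -0.30 (adjusted p = 0.0701), and its 3 other kept probe sets by -0.071 to 0.38.

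The BRCA1 group held several of the deepest falls, with 3 of 4 genes called. BRIP1, the helicase that binds BRCA1, read 538 and 601 with siCtrl against 158 and 178 with siCYLD and fell by 1.67 ± 0.15 (adjusted p = 6e-06, limma), which left 29.5% of the siCtrl signal. BRCA1 read 1398 and 1358 with siCtrl against 459 and 428 with siCYLD and fell by 1.60 ± 0.12 (adjusted p = 1.03e-06, limma), leaving 32.2%. For both genes the siCYLD arrays lay close together and far below siCtrl. BARD1, the ubiquitin ligase partner of BRCA1, read 185 and 194 with siCtrl against 116 and 88.4 with siCYLD, again without overlap. It fell by 0.81 ± 0.23 (adjusted p = 0.0267, limma) and lost its call without siCtrl replicate 1 (adjusted p = 0.0556), siCtrl replicate 2 (adjusted p = 0.0989) or siCYLD replicate 2 (adjusted p = 0.136). PALB2, the bridge from BRCA1 to BRCA2, read 437 and 424 with siCtrl against 382 and 421 with siCYLD. The groups lay next to each other without overlap, and the difference of -0.098 (interval -0.41 to 0.22) was not called.

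Of the strand exchange genes, 4 of 7 were called lower. RAD51AP1, which helps strands pair in recombination, read 621 and 679 with siCtrl against 171 and 161 with siCYLD. Its fall of 1.87 ± 0.14 (adjusted p = 1.52e-06, limma) was the largest of the 37 differences and left 25.6% of the siCtrl signal. RAD54L, a motor protein of strand exchange, read 343 and 267 with siCtrl against 82.2 and 126 with siCYLD and fell by 1.43 ± 0.21 (adjusted p = 3.70e-04, limma). RAD54B, its relative, read 339 and 237 with siCtrl against 123 and 87.0 with siCYLD and fell by 1.32 ± 0.23 (adjusted p = 0.0011, limma). None of these 3 genes had overlapping groups. Of RAD51C, RAD51D, XRCC2 and XRCC3, whose products work in shared complexes, RAD51C was called. It fell by 0.51 ± 0.14 (adjusted p = 0.0206) and lost its call without siCtrl replicate 1 (adjusted p = 0.0883) or siCYLD replicate 2 (adjusted p = 0.0692). XRCC3 differed by -0.72 (interval -1.27 to -0.17, adjusted p = 0.0619) and XRCC2 by 0.23 (interval -0.17 to 0.62). RAD51D read 177 and 177 with siCtrl against 188 and 178 with siCYLD, with siCYLD slightly above siCtrl and a difference of 0.045 (interval -0.42 to 0.51).

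Among the genes of the Fanconi core complex and its partner enzyme UBE2T, 4 of 8 were called lower, UBE2T and FANCL included. UBE2T, the ubiquitin-conjugating enzyme of the pathway, read 428 and 416 with siCtrl against 190 and 113 with siCYLD and fell by 1.43 ± 0.21 (adjusted p = 3.19e-04, limma). FANCL, the ligase subunit that UBE2T pairs with, read 2045 and 1778 with siCtrl against 1106 and 848 with siCYLD and fell by 0.97 ± 0.14 (adjusted p = 2.51e-04, limma). The siCYLD arrays were below siCtrl for both, and siCYLD replicate 2 was the lower. FANCB, which holds FANCL in the complex, read 84.9 and 105 with siCtrl against 31.7 and 33.6 with siCYLD and fell by 1.18 ± 0.35 (adjusted p = 0.0269, limma). Its call was lost without siCYLD replicate 1 (adjusted p = 0.0508) or siCtrl replicate 2 (adjusted p = 0.124). FANCG, an adaptor subunit, fell by 0.61 ± 0.13 (adjusted p = 0.00401), from 704 and 766 to 480 and 469. FANCE, the subunit that contacts FANCD2, read 699 and 749 with siCtrl against 722 and 742 with siCYLD, overlapping groups with a difference of 0.016 (interval -0.26 to 0.29). FANCF (0.046), FANCC (-0.18) and the fork remodeller FANCM (-0.19) were not called either, with intervals from -0.70 to 0.34 between them.

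FANCI, the substrate of that ligase and partner of FANCD2, read 607 and 548 with siCtrl against 244 and 232 with siCYLD. It fell by 1.23 ± 0.14 (adjusted p = 4.25e-05, limma), with no overlap and 41.1% of the siCtrl signal left. Of its 2 other kept probe sets, 1 differed by -1.45 and the other by 0.11.

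Of the genes that undo joint molecules, 4 of 6 were called lower. BLM, the helicase that dissolves double junctions, read 241 and 257 with siCtrl against 167 and 102 with siCYLD and fell by 0.85 ± 0.23 (adjusted p = 0.0188, limma). Its call was lost without siCtrl replicate 2 (adjusted p = 0.071) or siCYLD replicate 2 (adjusted p = 0.146). Its partners RMI1 and RMI2 were also called lower. RMI2 read 862 and 711 with siCtrl against 471 and 531 with siCYLD and fell by 0.63 ± 0.14 (adjusted p = 0.00555, limma). RMI1 fell by 0.53 ± 0.14 (adjusted p = 0.0187), a call lost without siCYLD replicate 2 (adjusted p = 0.16). EME1, a partner of the nuclease MUS81, read 775 and 844 with siCtrl against 482 and 488 with siCYLD and fell by 0.72 ± 0.13 (adjusted p = 0.00125, limma). MUS81 itself differed by 0.12 (interval -0.099 to 0.33) and was not called. SLX4, a scaffold for nucleases, read 184 and 227 with siCtrl against 162 and 223 with siCYLD, overlapping groups with a difference of -0.094 (interval -0.59 to 0.41). MSH6, a mismatch recognition protein, read 3177 and 3847 with siCtrl against 2695 and 2993 with siCYLD, without overlap, and was not called (difference -0.30, interval -0.54 to -0.054, adjusted p = 0.0783).

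Of the 20 calls, 13 held when any single untreated array was left out and 7 did not, those of BARD1, BLM, EXO1, FANCB, RAD51C, RMI1 and TOPBP1. Counts without an array ran from 15 (without siCYLD replicate 2) to 20. Those fits called 8.16% to 11.1% of all genes lower. With only the untreated arrays whose labels agree, siCYLD replicate 2 and siCtrl replicate 1, 30 of 37 differences were negative (55.3% of all genes). For 28 of them, the 20 called genes included, this sign was fixed beforehand by untreated groups that did not overlap. A fit of siRNA and inhibitor without both arrays of conflicting labels called 7 genes lower (3.89% of all genes), BRCA1, BRIP1, CHEK1, FANCL, RAD51AP1, RAD54B and RAD54L. With arrays grouped by source name, 0 were called and 0 had an unadjusted p under 0.05 (limma). Each untreated group then mixes both siRNA titles, and 0% of all genes were called lower. Of the 65 kept probe sets of the 37 genes, 27 were called lower and 0 higher (9.06% of all kept probe sets were lower). Of the 12 other kept probe sets of the 20 called genes, 10 were negative and 8 called lower, and the exceptions in sign were those of FANCI and MRE11.

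**Figure D3:**
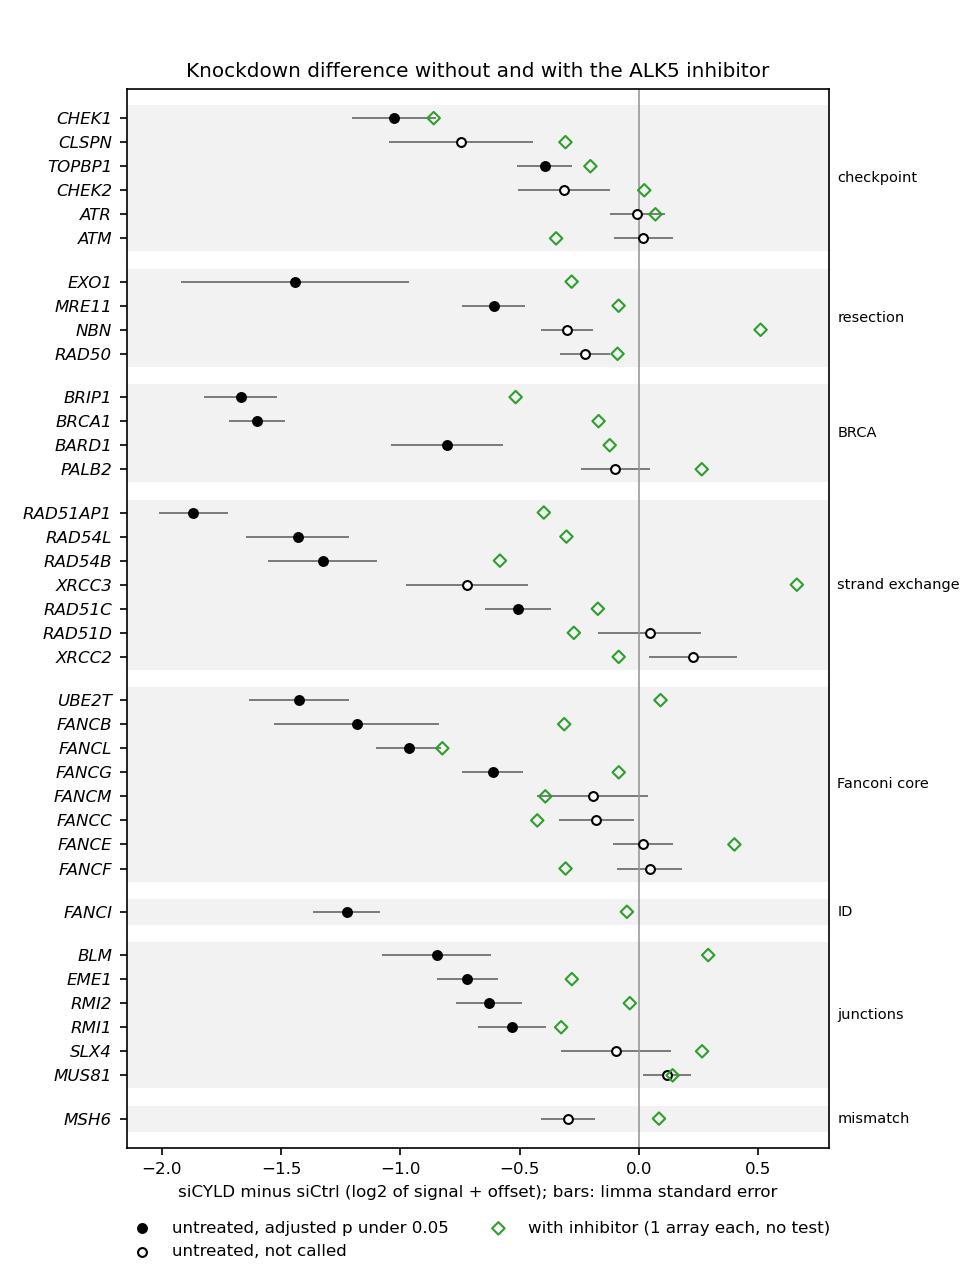
siCYLD minus siCtrl (log2 of signal plus offset, horizontal axis) of 37 repair genes by role. Circles show untreated cells with limma standard errors (filled, adjusted p under 0.05) and diamonds the inhibitor arrays, 1 against 1 without a test. Filled circles reach -1.87 at RAD51AP1, while the diamonds lie between -0.86 and 0.66.

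With the ALK5 inhibitor, across both siRNAs, 17 of 37 genes were called higher and 0 lower, against 11.2% and 8.82% of all genes, and the median was 0.49 against 0.0062. Inhibitor comparisons share their untreated arrays with the knockdown comparison, so an untreated siCYLD signal that is low enters both. RAD54L, at 640 and 515 on the siCtrl and siCYLD inhibitor arrays, had the largest inhibitor difference, 1.60 ± 0.26 (adjusted p = 0.00206, limma). RAD51AP1 read 1018 and 768 with inhibitor (1.37 ± 0.26, adjusted p = 0.00463, limma). FANCI read 952 and 919 (1.29 ± 0.22, adjusted p = 0.00267, limma). Each of these inhibitor arrays lay above the 4 untreated arrays of the same gene.

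BRIP1 read 842 and 584 with inhibitor (1.13 ± 0.22, adjusted p = 0.00576), where the siCYLD array lay between the untreated siCtrl arrays. BRCA1 read 1833 and 1629 (1.12 ± 0.24, adjusted p = 0.00935) and RAD54B 452 and 296 (1.01 ± 0.23, adjusted p = 0.0121, limma). RMI2 read 1291 and 1257 (1.01 ± 0.15, adjusted p = 0.00161, limma), above every untreated array. EME1 read 1244 and 1021, CHEK1 618 and 333, and FANCG was at 1125 and 1061, all called higher. RMI1, TOPBP1, CHEK2, FANCF, MSH6, RAD50 and MUS81 were also called, by 0.33 to 0.62. FANCL was not, with 2103 and 1181 and a difference of 0.21 (adjusted p = 0.28). None was called lower, and SLX4 had the most negative value, -0.29 (143 and 175 with inhibitor). By role, 3 of 6 checkpoint genes, 1 of 4 resection genes, 2 of 4 of the BRCA1 group and 3 of 7 strand exchange genes were called. So were FANCI, 4 of 6 junction genes, MSH6 and 2 of 8 genes in the group of the core complex and UBE2T. The count was 7 without the siCYLD inhibitor array and 11 without siCYLD replicate 1. In that order, those fits called 5.25% and 6.89% of all genes higher. Of the cell type markers tested, 1 of 8 squamous (KRT5, 2.98), 1 of 5 fibroblast (FBLN1, 1.10) and 1 of 2 endothelial markers (VWF, 1.54) were called higher with inhibitor across siRNAs, and 1 of 3 leukocyte markers (CSF1R, -0.97) lower. On the siCtrl and siCYLD inhibitor arrays the summed signals were 85294 and 70864 for squamous, 1688 and 1413 for fibroblast, 360 and 382 for endothelial and 198 and 207 for leukocyte markers. Their part in the inhibitor results was not tested.

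Inhibitor differences were also taken within each siRNA, 1 array against 2, on the assumption that a single array varies as duplicates do. In siCtrl cells 7 of 37 were higher and 0 lower (5.02% and 4.34% of all genes), with a median of 0.30 against -0.0022, and the siCtrl inhibitor array lay above both untreated siCtrl arrays for 29 of 37 (38.8% of all genes). Those called were EME1, FANCF, FANCG, FANCI, RAD51AP1, RAD54L and RMI2, at 0.60 to 1.04, and 15 had an unadjusted p under 0.05 (24.3% of all genes). Each of the 7 lost its call without an untreated siCtrl array, and the count was 4 without siCtrl replicate 1 and 4 without siCtrl replicate 2. In that order, those fits called 3.89% and 6.48% of all genes higher. In siCYLD cells 21 of 37 were higher and 0 lower (12.2% and 10.2% of all genes), with a median of 0.68 against 0.016. Of the called genes RAD54L rose by 2.17 and RAD51AP1 by 2.11, followed by FANCI at 1.88, BRCA1 at 1.84, BRIP1 at 1.71 and UBE2T at 1.67. The siCYLD inhibitor array lay above both untreated siCYLD arrays for 31 of 37 genes (43% of all genes). It lay above both untreated siCtrl arrays for 22 of 37 (41.2% of all genes).

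**Figure D4:**
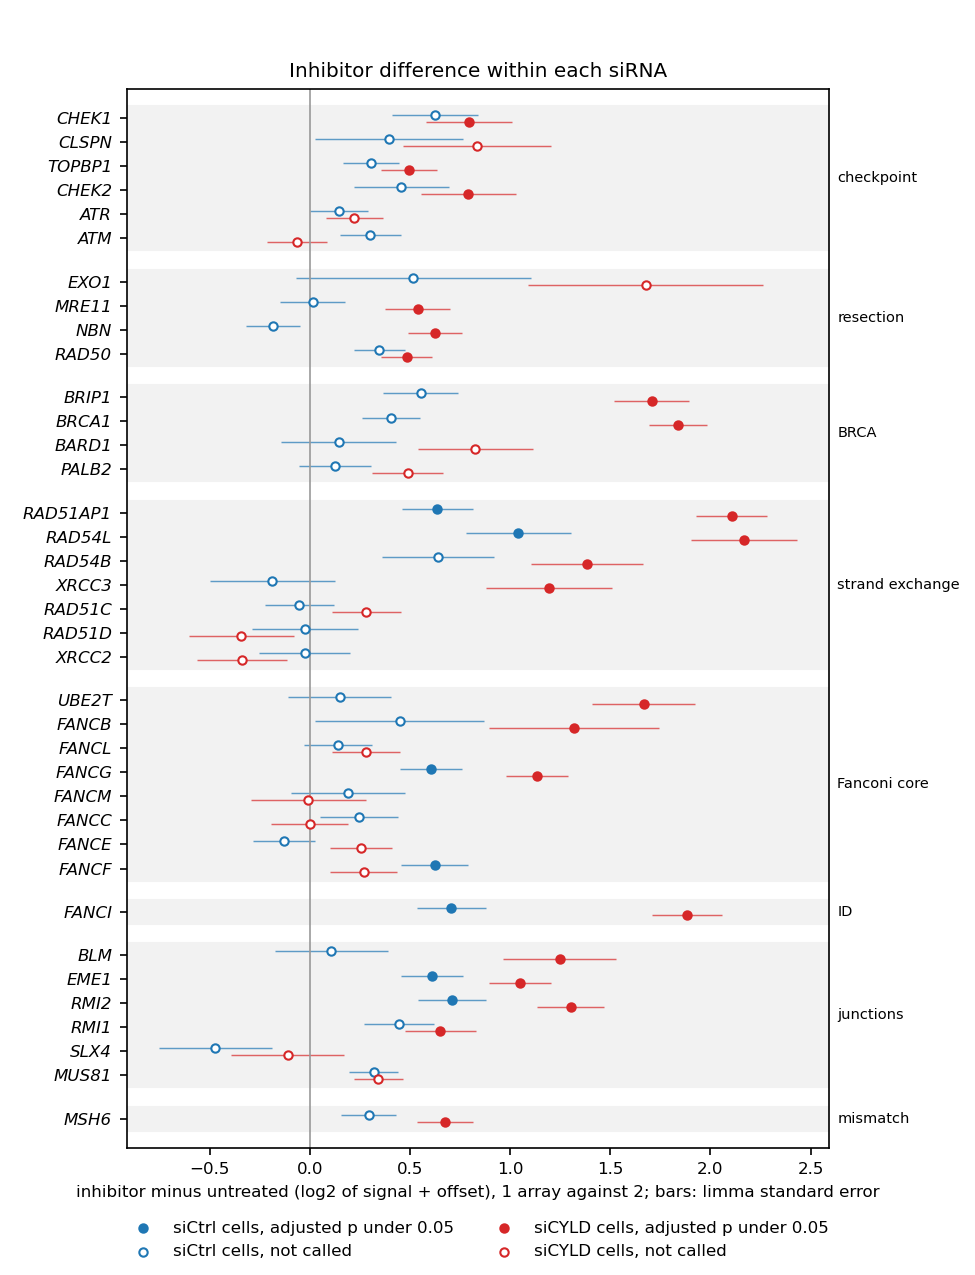
Inhibitor minus untreated (log2 of signal plus offset) of 37 repair genes within siCtrl cells (blue) and siCYLD cells (red), 1 array against 2, with limma standard errors. Filled points are called at an adjusted p under 0.05, 7 in siCtrl and 21 in siCYLD cells, and the red points of RAD54L and RAD51AP1 lie beyond 2.

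Whether the knockdown difference itself changed with the inhibitor was tested as an interaction, inhibitor arrays minus untreated arrays. It was called for 4 of 37 genes, each with a less negative siCYLD difference under the inhibitor, and for 0 in the other direction (0.982% and 0.688% of all genes). The median was 0.38 against 0.025 over all genes, and 12 had an unadjusted p under 0.05 (13.7% of all genes). RAD51AP1 had an interaction of 1.47 ± 0.25 (adjusted p = 0.00898, limma), from a knockdown difference of -1.87 untreated to -0.40 in the inhibitor pair. BRCA1 had 1.43 ± 0.21 (adjusted p = 0.00407, limma), from -1.60 to -0.17, so that 32.2% of the siCtrl signal was left untreated and 88.9% with inhibitor. FANCI had 1.18 ± 0.24 (adjusted p = 0.0299, limma), from -1.23 to -0.050, and BRIP1 1.15 ± 0.27 (adjusted p = 0.0493, limma), from -1.67 to -0.52. Other kept probe sets had interactions of 1.88 for BRCA1, 0.86 for BRIP1, and 1.06 and 0.17 for FANCI. None of these was called when all kept probe sets were fitted, nor was the BRIP1 probe set used here. Without the arrays of conflicting labels the 4 interactions were 1.45 for RAD51AP1, 1.503 for BRCA1, 1.28 for FANCI and 1 for BRIP1, values without a test. The call of BRIP1 was lost without siCtrl replicate 2, where its interaction was 1.075. Without siCYLD replicate 1 the share called was larger, both among the 37 genes and among all genes.

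UBE2T had the largest interaction, 1.52 ± 0.36, and was not called (adjusted p = 0.0605, limma). It read 470 and 502 on the inhibitor arrays, the siCYLD array being the higher. NBN was near the threshold too (0.81 ± 0.19, adjusted p = 0.0549), at 2528 and 3609. Its other kept probe sets had interactions of 0.62, 0.25 and 0.0095, which were not called. CHEK1 and FANCL had interactions of 0.17 (interval -0.49 to 0.82) and 0.14 (interval -0.38 to 0.66). In the inhibitor pair CHEK1 read 618 with siCtrl and 333 with siCYLD, and FANCL 2103 and 1181, so that 53.9% and 56.2% of the siCtrl signal was left. The other kept CHEK1 probe sets had larger interactions, 0.78, 0.44 and 0.69, which were not called. In the inhibitor pair they read 183 and 198, 248 and 197, and 115 and 71.7. A difference between CHEK1 or FANCL and the genes with a called interaction was not tested.

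Within the inhibitor pair, 1 array against 1 without a test, the median siCYLD minus siCtrl difference of the 37 genes was -0.17, against -0.0071 over all genes. Values ran from -0.86 (CHEK1) to 0.66 (XRCC3). Of the 37, 31 lay within 0.5 of 0 (73.2% of all genes), 26 were negative (50.8%) and 0 were below -1 (2.81%). With siCtrl and siCYLD in turn, EXO1 read 182 and 147, FANCB 135 and 105, BARD1 211 and 192, and PALB2 472 and 570. BLM read 270 with siCtrl and 334 with siCYLD, the reverse order of its untreated groups. RAD51D read 174 and 141, ATR 1632 and 1713, FANCE 661 and 877, RAD50 4714 and 4430, and MSH6 4287 and 4547. The siCYLD inhibitor array had an ACTB 3′ to 5′ ratio of 2.38, inside the range of the untreated siCYLD arrays. Its GAPDH ratio (1.97) and poly-A spike signal (1076) lay above those arrays (1.80 and 1.91, 1036 and 985). The siCtrl inhibitor array had an ACTB ratio of 3.67, above untreated siCtrl (3.41 and 3.21). Its GAPDH ratio (1.87) lay inside their range and its spike signal (828.4) just below it (830.0 and 901.9). The part of these measures in the inhibitor pair was not tested.

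A list of 72 other genes of the same or linked pathways, POLQ and TP53BP1 among them, was read beside the repair genes. Of the list, 63 were tested. Of these 17 were lower with siCYLD and 3 higher, with a median of -0.20. MND1, a meiotic recombination partner, fell by 1.45 and POLQ, the polymerase of theta-mediated end joining, by 1.43, from 449 and 527 to 177 and 163. POLQ read 687 and 721 in the inhibitor pair and was the only gene of that list called for the interaction (1.503, adjusted p = 0.0131, limma). PARPBP fell by 0.91, the deubiquitinase gene USP1 of the FANCI-FANCD2 pair by 0.87, TIMELESS by 0.83, the junction resolvase gene GEN1 by 0.81 and RHNO1 by 0.80. RPA3 fell by 0.67, BABAM2 by 0.62, the nuclease gene DNA2 by 0.59, MCM9 by 0.55 and RPA2 by 0.51. MCM9 read 891 and 407 in the inhibitor pair, a difference of -1.10. The 3 genes that rose were EME2 (0.68) and the core complex subunits FAAP20 (0.59) and FAAP100 (0.59). Across siRNAs the inhibitor raised 13 of the 63 and lowered 2.

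Other repair pathways had knockdown medians nearer 0 than the 37 repair genes (-0.61). The 63 other genes of the same or linked pathways did too, at -0.20, close to the base excision and mismatch repair medians. Of 9 end-joining genes, a list without POLQ, XRCC5 (-0.49) and XRCC6 (-0.44), the Ku subunits, were lower. The polymerase gene POLM (1.10) was higher, and the list median was -0.063. Of 16 base excision genes the glycosylase genes NEIL3 (-1.50) and MUTYH (-0.86) were lower (median -0.19). Of 16 nucleotide excision genes 0 were called by limma and 2 had an unadjusted p under 0.05 (median -0.11), and of 3 further mismatch repair genes 0 were called and 1 had an unadjusted p under 0.05 (median -0.18). Lists of DNA replication and mitosis had medians further from 0 than the repair genes. Of 31 replication genes 24 were lower and 0 higher (median -0.79, led by TYMS at -1.68, RRM2 at -1.67 and PRIM1 at -1.36). Of 30 mitotic genes 30 were lower (median -1.78, led by ANLN at -2.31, HMMR at -2.28 and CCNB2 at -2.25). With inhibitor across siRNAs 27 of 31 replication and 22 of 30 mitotic genes were higher, and of 16 base excision genes 8 were higher and 0 lower (median 0.37, led by NEIL3 at 1.47 and NTHL1 at 0.97). In the inhibitor pair the medians of the replication and mitotic lists were -0.13 and -0.50, beside -0.17 for the 37 repair genes. The part of these proliferation genes in the repair results was not tested.

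**Figure D5:**
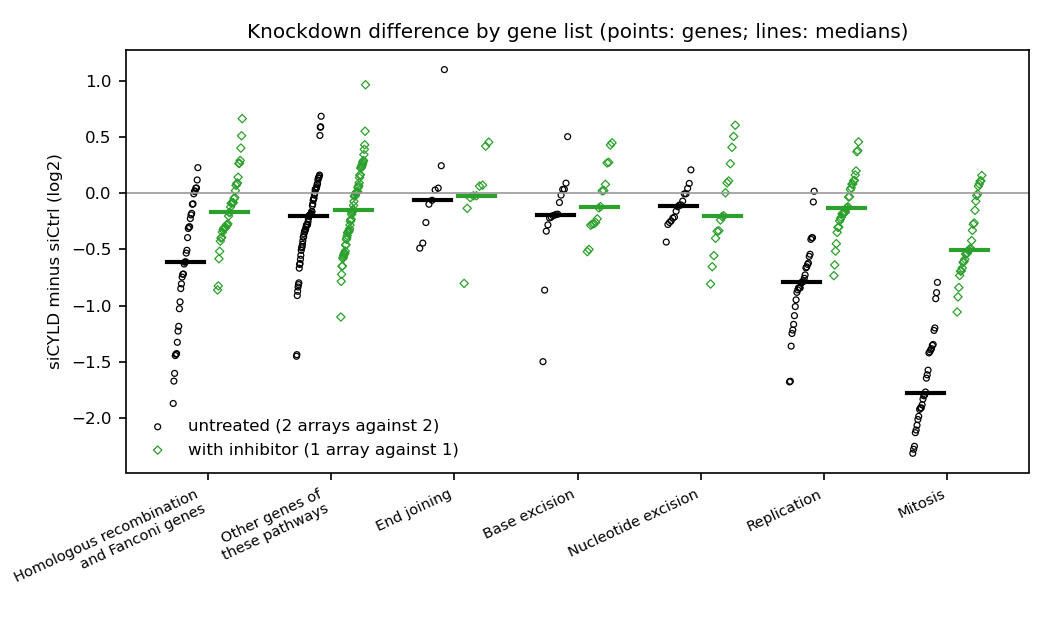
siCYLD minus siCtrl (log2, vertical axis) of each gene in 7 lists, in untreated cells (black circles, 2 arrays against 2) and in the inhibitor pair (green diamonds, 1 against 1), with list medians as lines. Black medians are -0.61 for the 37 repair genes, -0.79 for replication and -1.78 for mitosis, and green medians are -0.17, -0.13 and -0.50.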

How the data were processed

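Total RNA of SAS cells was hybridised to 6 single-colour Affymetrix arrays. The deposited values were 1 linear intensity (signal) per probe set and array, which the authors produced with MAS5, per the submitters' processing notes. Its version is not given in the sources used here. After trimming 2% at each end the mean signal was 500.1 on every array, and median signals were 73.4 to 84.8. Arrays carry no read depth, and their number limits the precision.

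From these values log2(signal + 16.06) was computed, the offset being the 20th percentile. A probe set with 1 symbol was kept if its highest group mean exceeded the median of all values, and each gene was represented by its brightest kept probe set. This gave 12935 genes from 24537 probe sets. Differences understate changes of genes near the floor.

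In R 4.3.3, limma 3.58.1 (with data.table, version 1.17.8) was run across all genes, with an intensity trend and Benjamini-Hochberg adjustment, two-sided, called at an adjusted p under 0.05. Knockdown, interaction and inhibitor within each siRNA came from 4 group means (2 residual and 10.9 prior degrees of freedom), and the inhibitor across siRNAs from an additive model (3 and 7.98). Simulated data of 12935 genes had normal noise, with 100 genes changed 2-fold and 100 changed 4-fold. The knockdown comparison recovered 48% of 2-fold and 86% of 4-fold changes. The inhibitor across siRNAs recovered 71% and 92%, and the interaction 5% and 41%. For knockdown and the inhibitor many more genes were called in the real data, so these shares do not give the power there.

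The genes and lists (other pathway genes, end joining, mismatch, base and nucleotide excision repair, replication, mitosis, and markers of squamous, fibroblast, leukocyte and endothelial cells) were chosen with earlier results of these data known. Signals are given for the 15 largest called knockdown differences, the largest called and the smallest difference in each role, the 6 largest called inhibitor differences and called interactions, with others added after their values were seen. Of the other pathway genes the 12 largest called and every one in the opposite direction are named, and at most 3 called genes of other lists. Of the replicate numbers, arrays of the same number deviated with a correlation of 0.04, so they were not used as pairs. Plots came from matplotlib 3.10.9 under Python 3.11.15.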

Additional observations from a re-analysis of the deposited data

Results flagged for a closer look

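The knockdown difference of 4 repair genes differed between untreated and inhibitor-treated cells by the interaction test of limma. The interaction was 1.43 for BRCA1, 1.47 for RAD51AP1, 1.18 for FANCI and 1.15 for BRIP1, on the log2 scale. In each gene the inhibitor array of siCYLD lay above both untreated siCYLD arrays (43% of all genes). That order adds no support, because genes chosen by the interaction test are likely to have it. The inhibitor side of each test is 1 array per siRNA.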

How the results depend on the processing

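Several settings moved counts of called repair genes by over 1.5 times. Shares of all genes called in the same direction are given in brackets. Without the filter the counts were 13 for knockdown (5.08%) and 15 for the inhibitor across siRNAs (5.11%, within 1.5 times). They were 0 for the inhibitor in siCtrl (1.23%), 13 for the inhibitor in siCYLD (5.12%) and 1 for the interaction (0.0708%). Without the intensity trend they were 13 for knockdown (4.97%) and 6 for the inhibitor across siRNAs (4.61%). The other counts in that setting were 0 in siCtrl (0.0773%), 11 in siCYLD (4.64%) and 0 for the interaction (0%). With the mean of kept probe sets, 4 were called in siCtrl (3.42%) and 1 for the interaction (0.456%). Probe sets with the suffix _x_at or _s_at can match several transcripts. When these were dropped, 2 were called for the interaction (0.763%) among the 28 genes left, which lack BRCA1. Grouping by source name gave 0 knockdown calls, and the additive fit without both arrays of conflicting labels gave 7, and 12 for the inhibitor across siRNAs (within 1.5 times). With 1 array left out in turn, counts ranged from 15 to 20 for knockdown, 7 to 20 for the inhibitor across siRNAs, 4 to 9 in siCtrl, 18 to 24 in siCYLD and 4 to 7 for the interaction. Of all genes, those fits called 8.16% to 11.1% for knockdown and 5.25% to 12.3% for the inhibitor across siRNAs. They called 3.89% to 7.25% in siCtrl, 10.7% to 14.7% in siCYLD and 1.17% to 2.11% for the interaction. The additive fit above called 3.89% for knockdown and 6.03% for the inhibitor. A fit with the replicate number as a block gave 22 knockdown calls. Of all genes, 16.6% were called lower in that fit and 0% with groups by source name. Other offsets, quantile normalization, robust moderation and a stricter filter kept every count within 1.5 times of that reported. Causes were not tested. Single genes were not refitted with groups by source name.

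Of 1280 values of single genes under an alternative, 1075 kept direction and call, 171 lost the call, 5 gained it and 29 changed sign, in 11 genes. Of the values that changed sign, those of MRE11 alone had been called in the same comparison. When probe sets with the suffix _x_at or _s_at were dropped, which replaces its probe set, its knockdown difference was 0.0112 and its inhibitor difference in siCYLD cells -0.166. In the same setting ATR was at 0.373, RAD50 at 0.0646 and RAD51D at -0.174, and with the mean of probe sets RAD51D was at -0.0647. Quantile normalization put ATR at 0.00884. The additive fit of 6 arrays gave -0.103 for ATM, 0.0195 for ATR, -0.0716 for FANCF, 0.0225 for PALB2, -0.0609 for RAD51D and 0.0255 for SLX4. Without the arrays of conflicting labels it gave -0.0931 for ATM, -0.102 for FANCF, 0.0242 for NBN, 0.106 for PALB2, -0.133 for RAD51D and 0.264 for SLX4. With 1 array left out in turn, knockdown differences of 6 genes crossed 0, and ran from -0.0548 to 0.0929 for ATM, -0.118 to 0.107 for ATR, -0.0315 to 0.0644 for FANCE, -0.00104 to 0.0934 for FANCF, -0.455 to 0.0671 for FANCM and -0.310 to 0.121 for SLX4.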
